A study of Homo sapiens with 18 samples.

Results

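The enzymes that modify and crosslink collagen were compared between the human cell lines H1975 and HCC827, long-established models of EGFR-mutant lung adenocarcinoma. The set has 10 genes, listed by symbol, of 60617 genes listed in the Illumina files and 58676 in the long-read files. It holds the lysyl oxidases LOX, LOXL1, LOXL2, LOXL3 and LOXL4, the lysyl hydroxylases PLOD1, PLOD2 and PLOD3, and P4HA1 and P4HA2, catalytic subunits of collagen prolyl 4-hydroxylase. All 10 were found in every file by Ensembl identifier.

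Each line gave 3 independent RNA samples. From every sample a short-read Illumina library, a long-read cDNA library of Oxford Nanopore (ONT) and an Iso-Seq library of PacBio were made, in all 18 libraries or 6 groups of 3. H1975 and HCC827 were cultured in RPMI medium with fetal calf serum to near confluence, and the labels name no drug or genetic change for either. Illumina and ONT libraries were made from poly(A) RNA and PacBio libraries from total RNA, although the headers of PacBio HCC827 replicate 3 name poly(A). Each group is a single cell line, so the p-values measure the spread between RNA samples of these lines, and bulk counts cannot tell fewer expressing cells from less RNA per cell.

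Gene totals were 33362018 to 40200473 counts in Illumina libraries except HCC827 replicate 2, which had 10020699. They were 81467393 to 116497461 in ONT and 37795 to 54339 in PacBio. Counts of PacBio H1975 replicates 2 and 3 were apart by less than the noise of sampling (a mean chi-square of 0.539), and so were those of HCC827 replicates 1 and 2 (0.671). The other PacBio pairs of a line had 1.30 to 4.56. Each close pair was summed and counted as 1 sample in PacBio tests. Summed Illumina levels of the 6 epithelial markers were 3789 to 4063 counts per 1000000 (CPM) in H1975 and 10858 to 17254 CPM in HCC827. Lung lineage markers (5 genes) summed to 26.2 to 30.2 and 291 to 393 CPM, with SFTPC at 0 in HCC827. Of markers of other cells, the 7 fibroblast genes summed to 3.79 to 4.68 CPM in H1975 and 0.406 to 0.777 CPM in HCC827. In ONT their order was the other way, 0.882 to 1.04 CPM in H1975 and 1.57 to 2.50 CPM in HCC827, where DCN had 0 reads, and PDGFRB among them was lower in HCC827 in Illumina (log2 fold -5.08) and higher in ONT (1.60). The 3 endothelial genes summed to 4.09 to 4.88 and 3.15 to 3.66 CPM in Illumina. The 3 hematopoietic genes, mostly CD68, summed to 63.6 to 70.1 and 106.8 to 138 CPM, with CD3E at 0 in HCC827. The part of these markers in the results was not tested.

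Collagen is modified inside the endoplasmic reticulum before it is secreted. Prolyl 4-hydroxylases, made of an alpha subunit such as P4HA1 or P4HA2 and the beta subunit P4HB, hydroxylate proline and so stabilise the triple helix. Lysyl hydroxylases hydroxylate lysine, and both families use iron, oxygen and 2-oxoglutarate. Outside the cell, the copper enzymes of the lysyl oxidase family turn lysine and hydroxylysine into aldehydes, which react to form the crosslinks of collagen and elastin fibres. PLOD2 acts on the telopeptides of collagen, where hydroxylation sets the type of crosslink, and PLOD2 and LOX have been linked to stiff matrix and spread of lung adenocarcinoma in model systems. LOX, PLOD2 and P4HA1 are known targets of hypoxia-inducible factor, whose binding sites share the core letters ACGTG or GCGTG.

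RefSeq promoters (GRCh38.p14) were matched for 9 of the 10 genes, in 12 entries. The 250 bases before the start site are shown for the genes whose Illumina log2 fold between the lines was below -2 and for LOXL3, which was higher in HCC827 in both deep platforms, a choice made after their values were seen. Letters run 5′ to 3′ along the gene, and capitals mark ACGTG or GCGTG on either strand, read as CACGT or CACGC on the other. For LOX and LOXL3 the entry farthest upstream is shown.
LOX, chr5:122078260-122078509, minus strand: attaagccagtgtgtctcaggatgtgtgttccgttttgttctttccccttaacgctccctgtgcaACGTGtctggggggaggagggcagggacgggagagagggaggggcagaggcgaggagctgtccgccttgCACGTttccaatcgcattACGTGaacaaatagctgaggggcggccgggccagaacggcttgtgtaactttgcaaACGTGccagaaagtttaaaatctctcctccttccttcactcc
PLOD2, chr3:146161185-146161434, minus strand: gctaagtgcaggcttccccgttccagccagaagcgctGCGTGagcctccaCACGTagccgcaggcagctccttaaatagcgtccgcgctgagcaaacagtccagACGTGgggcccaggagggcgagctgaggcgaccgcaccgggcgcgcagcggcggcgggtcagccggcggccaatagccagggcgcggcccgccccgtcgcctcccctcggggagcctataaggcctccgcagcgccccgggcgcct
P4HA1, chr10:73096867-73097116, minus strand: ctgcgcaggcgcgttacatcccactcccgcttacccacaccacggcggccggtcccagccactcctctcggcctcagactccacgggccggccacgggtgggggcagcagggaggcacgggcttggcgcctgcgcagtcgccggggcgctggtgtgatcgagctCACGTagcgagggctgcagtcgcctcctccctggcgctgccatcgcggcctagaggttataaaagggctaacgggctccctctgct
LOXL4, chr10:98268195-98268444, minus strand: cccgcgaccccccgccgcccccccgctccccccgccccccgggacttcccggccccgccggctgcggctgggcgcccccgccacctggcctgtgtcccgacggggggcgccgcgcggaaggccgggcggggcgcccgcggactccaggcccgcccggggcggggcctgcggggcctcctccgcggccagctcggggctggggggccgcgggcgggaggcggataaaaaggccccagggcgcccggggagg
LOXL3, chr2:74553943-74554192, minus strand: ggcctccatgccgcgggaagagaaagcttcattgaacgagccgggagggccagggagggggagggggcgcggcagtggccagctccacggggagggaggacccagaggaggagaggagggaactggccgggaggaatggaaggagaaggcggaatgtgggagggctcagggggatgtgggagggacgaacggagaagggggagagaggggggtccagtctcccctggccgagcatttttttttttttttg

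The LOX promoter held 4 copies of ACGTG, which start 185, 116, 98 and 42 bases before the start site. PLOD2 had 2 copies of ACGTG and 1 of GCGTG, and P4HA1 had 1 ACGTG. No copy was in the LOXL4 entry, 85.3% of whose 300 bases are G or C, or in the LOXL3 entry shown. Of the entries not shown, PLOD1 had 2 copies of GCGTG and the other LOXL3 entry had 1, whereas LOXL1, PLOD3 and P4HA2 had none. The other 2 LOX entries, farther into the gene, overlap each other and hold the same 1 copy of each motif. The search covered 250 bases before to 50 after each start. Within an entry no match overlapped another. Among all 35116 RefSeq promoters of that length, 21.4% held ACGTG, 36.5% held GCGTG and 48.4% held either. A match is a description of the letters and not a shown binding site.

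Between the lines, 8 of the 10 enzyme genes were lower in HCC827 in Illumina, 1 was higher and 1 did not pass the test. ONT gave 8 lower and 2 higher. A gene was called at an adjusted p below 0.05 in edgeR's quasi-likelihood test, with Benjamini-Hochberg adjustment over all tested genes. Most genes differ between these lines: 74.1% of all tested genes were called in Illumina, 38% lower and 36.1% higher, and 62.7% in ONT, 31.6% lower and 31.1% higher. The median log2 fold, HCC827 over H1975, was -1.24 over the enzymes and -0.04 over all tested genes in Illumina, and -1.16 and -0.02 in ONT. The ranges of the 3 libraries of each line did not overlap for 9 of 10 enzymes in Illumina and 10 of 10 in ONT, against 76.9% and 69.1% of all tested genes. In PacBio only LOX, LOXL2, PLOD2 and PLOD3 passed the filter on low counts, and LOX and PLOD2 were called lower. Both are high in H1975, and passing through that line favours such genes, so their number is not read against the background of 3.34% of all tested genes called and 1.8% called lower. LOX, PLOD2, P4HA1, LOXL2 and LOXL4 had the large differences, while PLOD1, PLOD3 and P4HA2 moved by less than 1 on the log2 scale.

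**Figure D1:**
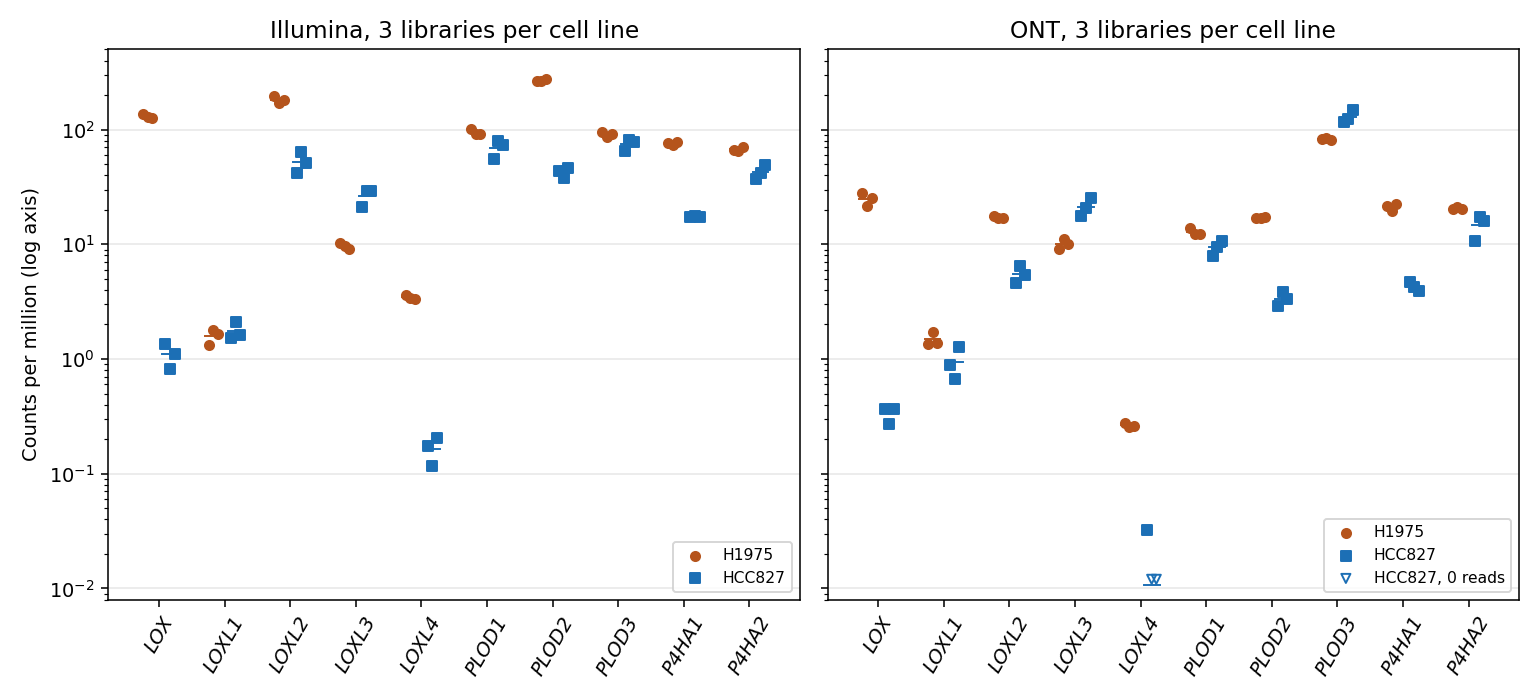
Level of each enzyme gene in CPM (vertical log axis) in the 3 H1975 libraries (circles) and 3 HCC827 libraries (squares) of Illumina (left) and ONT (right), with a line at each mean and open triangles for libraries with 0 reads. LOX falls from over 100 to about 1 CPM in Illumina, LOXL3 is higher in HCC827 on both sides, and PLOD3 changes order between the panels.

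LOX (ENSG00000113083, chromosome 5, 122063195 to 122078413, minus strand) encodes the founding lysyl oxidase. Its Illumina levels were 138, 129 and 127 CPM in the 3 H1975 libraries and 1.35, 0.816 and 1.12 CPM in those of HCC827. ONT gave 28.1, 21.7 and 25.3 CPM in H1975 and 0.367, 0.272 and 0.367 CPM in HCC827. Every HCC827 library was far below every H1975 library on both. The log2 fold was -6.79 ± 0.14 (SE, n = 3 libraries per line; adjusted p = 4.25e-13) in Illumina, a level 111 times lower in HCC827. In ONT the log2 fold was -6.22 ± 0.21 (adjusted p = 7.62e-09). PacBio counted LOX 14, 14 and 19 times in H1975 and 0 times in each HCC827 library. Set against a floor of 3 counts over the HCC827 group, the PacBio ratio of H1975 to HCC827 was 14.4. That value leaves out the counting error of the H1975 counts. With it, the exact (Clopper-Pearson) counting interval for the ratio of HCC827 to H1975 ran from 0 to 0.0888. LOX was called lower in PacBio HCC827 (edgeR adjusted p = 0.0155). That PacBio call was lost without H1975 replicate 2 or 3 or HCC827 replicate 1 or 2, with adjusted p of 0.0508 to 0.0741. The gene shares 138 exon bases with SRFBP1 on the opposite strand, which was also lower in HCC827 (log2 fold -2.82 ± 0.11 in Illumina and -3.22 ± 0.17 in ONT).

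LOXL2 and LOXL4, secreted family members with scavenger receptor domains, were lower in HCC827 as well. LOXL2 (ENSG00000134013, chromosome 8, 23296897 to 23425328, minus strand) had 198, 169 and 181 CPM in H1975 and 41.7, 63.6 and 50.9 CPM in HCC827 in Illumina. Its ONT levels were 17.8, 16.9 and 17.0 CPM against 4.57, 6.45 and 5.38 CPM. The ranges were apart on both platforms, with log2 folds of -1.83 ± 0.14 (adjusted p = 2.26e-08) in Illumina and -1.66 ± 0.16 (adjusted p = 8.15e-06) in ONT. PacBio counted LOXL2 19, 22 and 18 times in H1975 and 7, 6 and 4 times in HCC827. The PacBio log2 fold of -1.79 ± 0.43 did not pass the test with close pairs summed (edgeR adjusted p = 0.0694), and passed it with all 6 libraries taken as separate samples (0.00537), with no filter on low counts (0.0247) and without HCC827 replicate 3 (0.00877). LOXL2 shares 178 exon bases with its antisense gene LOXL2-AS1 (-1.89 ± 0.16 in Illumina and -2.66 ± 0.24 in ONT) and 120 with ENTPD4 on the same strand. ENTPD4 did not pass the test in Illumina (-0.15 ± 0.10, adjusted p = 0.192) and was lower in HCC827 in ONT (-1.47 ± 0.17).

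LOXL4 (ENSG00000138131, chromosome 10, 98247690 to 98268194, minus strand) was a minor transcript of H1975. It stood at 3.64, 3.39 and 3.32 CPM there and at 0.174, 0.117 and 0.203 CPM in HCC827 in Illumina, a log2 fold of -4.25 ± 0.25 (adjusted p = 2.06e-09). ONT counted 82 LOXL4 reads over the H1975 libraries and 3 over those of HCC827, all in replicate 1. The ratio of these reads over all gene counts of each line, without further scaling, was 32.1, H1975 over HCC827, with a 95% exact (Clopper-Pearson) interval of 10.6 to 159.0 for counting error only. The fitted log2 fold on scaled counts, which depends on the prior count here, was -4.31 ± 0.64 (edgeR adjusted p = 0.000175). Levels in the lines did not overlap on either platform. No LOXL4 count fell in any PacBio library, where 3 counts over the group would be 20.7 CPM in H1975 and 22.5 CPM in HCC827. LOXL4 shares 152 exon bases with the antisense RNA ENSG00000230928 (Illumina log2 fold -2.99 ± 0.55).

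LOXL3 was higher in HCC827, unlike LOX, LOXL2 and LOXL4. LOXL3 (ENSG00000115318, chromosome 2, 74532258 to 74555690, minus strand) encodes another lysyl oxidase with scavenger receptor domains. It had 10.3, 9.68 and 9.12 CPM in H1975 and 21.4, 29.1 and 29.2 CPM in HCC827 in Illumina. ONT gave 9.08, 11.2 and 10.1 CPM in H1975 and 17.7, 20.7 and 25.4 CPM in HCC827. All HCC827 libraries lay above all H1975 libraries on both, with log2 folds of 1.44 ± 0.13 (adjusted p = 1.52e-07) in Illumina and 1.07 ± 0.17 (adjusted p = 0.00024) in ONT. In PacBio the counts were 1, 2 and 2 in H1975 and 8, 4 and 8 in HCC827. The PacBio ratio of HCC827 to H1975 was 4.35 with a counting interval of 1.58 to 14.8, without a test across genes since LOXL3 did not pass the filter. LOXL3 shares 936 exon bases, 20.7% of its exons, with the mitochondrial protease gene HTRA2 and 216 with the adaptor gene DOK1, both on the opposite strand. HTRA2 (1.35 ± 0.11 in Illumina, 0.88 ± 0.19 in ONT) and DOK1 (1.49 ± 0.13 and 1.24 ± 0.17) were higher in HCC827 too, and reads of the overlaps cannot be told apart without the strand setting of the counting.

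LOXL1 (ENSG00000129038, chromosome 15, 73925989 to 73952137, plus strand), known for its part in elastic fibres, was low in both lines. In Illumina it had 1.33, 1.81 and 1.65 CPM in H1975 and 1.53, 2.10 and 1.62 CPM in HCC827, with overlapping ranges. The Illumina log2 fold was 0.06 ± 0.31 (adjusted p = 0.877). ONT gave 1.35, 1.71 and 1.39 CPM in H1975 against 0.884, 0.674 and 1.27 CPM in HCC827, a log2 fold of -0.66 ± 0.24 (adjusted p = 0.0344). That ONT call was lost with DESeq2 (adjusted p = 0.0501) and without any 1 library other than HCC827 replicate 3 (0.0547 to 0.131). The gap between its ONT and Illumina folds, -0.57 ± 0.33, did not pass its own test (adjusted p = 0.362). LOXL1 had 0 PacBio counts in all 6 libraries. The antisense gene LOXL1-AS1, which shares 335 exon bases with it, was lower in HCC827 on both platforms (-1.03 ± 0.16 and -0.97 ± 0.26).

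**Figure D2:**
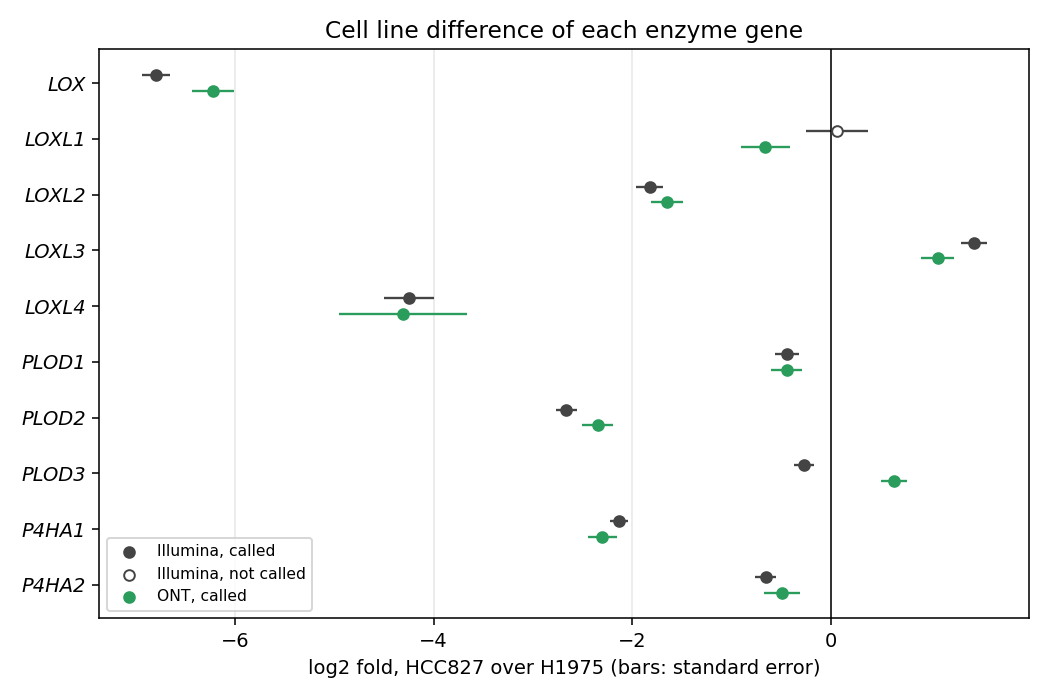
Log2 fold of each enzyme gene, HCC827 over H1975, in Illumina (grey) and ONT (green), from 3 libraries per line, with standard errors as bars and filled points for adjusted p below 0.05. LOX lies near -6.8 and -6.2, LOXL3 right of 0 on both, and PLOD3 at -0.28 in Illumina and 0.63 in ONT. The ONT point of LOXL4 rests on 3 HCC827 reads.

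Of the lysyl hydroxylases, PLOD2 had the large difference. PLOD2 (ENSG00000152952, chromosome 3, 146035139 to 146163725, minus strand) stood at 267, 267 and 278 CPM in H1975 and 43.7, 37.5 and 45.9 CPM in HCC827 in Illumina. ONT gave 17.1, 17.0 and 17.3 CPM in H1975 and 2.89, 3.85 and 3.34 CPM in HCC827. The H1975 libraries were close together and all were several times above HCC827, with log2 folds of -2.66 ± 0.11 (adjusted p = 3.62e-11) in Illumina and -2.35 ± 0.16 (adjusted p = 6.03e-07) in ONT. PacBio counts were 20, 25 and 22 in H1975 and 6, 3 and 4 in HCC827, a log2 fold of -2.30 ± 0.43 (edgeR adjusted p = 0.0359). The PacBio call was lost with DESeq2 (0.171) and without any 1 library other than HCC827 replicate 3 (0.0725 to 0.254). PLOD2 shares no exon bases with another annotated gene.

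PLOD1 (ENSG00000083444, chromosome 1, 11934205 to 11975538, plus strand), which hydroxylates lysines of the collagen helix, differed little. Its Illumina levels were 101, 91.2 and 92.1 CPM in H1975 and 56.0, 79.4 and 73.9 CPM in HCC827. ONT levels were 14.0, 12.4 and 12.2 CPM against 7.96, 9.55 and 10.8 CPM. HCC827 lay below H1975 without overlap on both, and replicate 1 was the lowest HCC827 library on both. The log2 fold was -0.45 ± 0.12 (adjusted p = 0.00381) in Illumina and -0.45 ± 0.16 (adjusted p = 0.0271) in ONT. In ONT the call was lost without any 1 H1975 library or without HCC827 replicate 1 (0.0639 to 0.114). PacBio counts of PLOD1, 4, 6 and 5 in H1975 and 5, 5 and 2 in HCC827, gave a ratio of 0.870 (interval 0.372 to 1.99), and no difference was detectable at this depth.

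PLOD3 (ENSG00000106397, chromosome 7, 101205977 to 101218420, minus strand), which also glycosylates hydroxylysine, went in opposite directions on the deep platforms. In Illumina it had 94.5, 86.2 and 91.7 CPM in H1975 and 65.2, 81.7 and 78.8 CPM in HCC827, so that every HCC827 library was lower. In ONT it had 83.3, 84.7 and 81.3 CPM in H1975 and 116, 123 and 147 CPM in HCC827, so that each was higher. The log2 fold was -0.28 ± 0.10 (adjusted p = 0.0259) in Illumina and 0.63 ± 0.13 (adjusted p = 0.00163) in ONT. The Illumina call was lost without H1975 replicate 1 (adjusted p = 0.103) or 3 (0.0807). PacBio counted PLOD3 12, 11 and 9 times in H1975 and 12, 4 and 8 times in HCC827, a log2 fold of -0.41 ± 0.43 (edgeR adjusted p = 0.632). At its 5′ end it shares 102 exon bases with ZNHIT1 on the opposite strand, whose log2 fold was 0.80 ± 0.11 in Illumina and 0.80 ± 0.12 in ONT. The part of ZNHIT1 reads in the PLOD3 counts was not tested.

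Whether the line difference itself depended on the platform was tested as an interaction over the 12 Illumina and ONT libraries, which called 7.16% of all tested genes. PLOD3 was the 1 enzyme of 10 called, with an ONT fold above the Illumina fold by 1.07 ± 0.17 on the log2 scale (adjusted p = 0.000452). The corresponding difference over all tested genes had a median of 0.11 under the scaling used and 0.00 under relative log expression scaling, where PLOD3 had 0.96 (adjusted p = 0.0025). LOX had a difference of 0.74 ± 0.26 (adjusted p = 0.109), which passed the test with a block for the RNA samples that the platforms share (0.83 ± 0.23, adjusted p = 0.0297). PLOD2 had 0.48 ± 0.18 (adjusted p = 0.124). Those of LOXL2, LOXL3, PLOD1, P4HA1 and P4HA2 ranged from -0.21 to 0.33 and did not pass, and that of LOXL4 rests on 3 ONT reads. Illumina and ONT differ at once in amount of mRNA, preparation and sequencer, which cannot be told apart here.

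Both prolyl hydroxylase subunits of the set were lower in HCC827, P4HA1 by more than P4HA2. A further alpha subunit, P4HA3, is outside the set and was counted with the partners below. Its mean Illumina level was 38.1 CPM in H1975 and 41.9 CPM in HCC827. It was not called in Illumina (log2 fold 0.13 ± 0.10, edgeR adjusted p = 0.240) or ONT (0.12 ± 0.17, edgeR adjusted p = 0.567). P4HA1 (ENSG00000122884, chromosome 10, 73007217 to 73096974, minus strand), the main catalytic subunit in most cells, had 76.4, 73.6 and 78.6 CPM in H1975 and 17.3, 17.5 and 17.4 CPM in HCC827 in Illumina. ONT gave 21.6, 19.6 and 22.3 CPM and 4.72, 4.24 and 3.88 CPM. Replicates were close and the lines far apart, with log2 folds of -2.13 ± 0.09 (adjusted p = 1e-10) in Illumina and -2.30 ± 0.15 (adjusted p = 4.89e-07) in ONT. PacBio counts of P4HA1 were 5, 6 and 4 against 2, 1 and 3, a ratio of 0.435 whose interval, 0.138 to 1.19, holds 1. The antisense RNA ENSG00000237768, which shares 47 exon bases with P4HA1, had nearly the same folds (-2.18 ± 0.13 and -2.49 ± 0.15).

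P4HA2 (ENSG00000072682, chromosome 5, 132190147 to 132295315, minus strand) is an alternative catalytic subunit. It stood at 66.6, 65.4 and 70.2 CPM in H1975 and 37.1, 41.6 and 49.1 CPM in HCC827 in Illumina. ONT levels were 20.4, 21.1 and 20.2 CPM against 10.7, 17.3 and 15.9 CPM. The ranges did not overlap, with log2 folds of -0.66 ± 0.11 (adjusted p = 7.13e-05) in Illumina and -0.49 ± 0.18 (adjusted p = 0.0332) in ONT. The ONT call was lost without any 1 H1975 library or without HCC827 replicate 1 (0.0783 to 0.105). PacBio counts were 6, 8 and 4 against 4, 3 and 2, a ratio of 0.544 (interval 0.215 to 1.27). P4HA2 shares 548 exon bases with its antisense gene P4HA2-AS1 (-0.65 ± 0.13 and -0.95 ± 0.15).

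**Figure D3:**
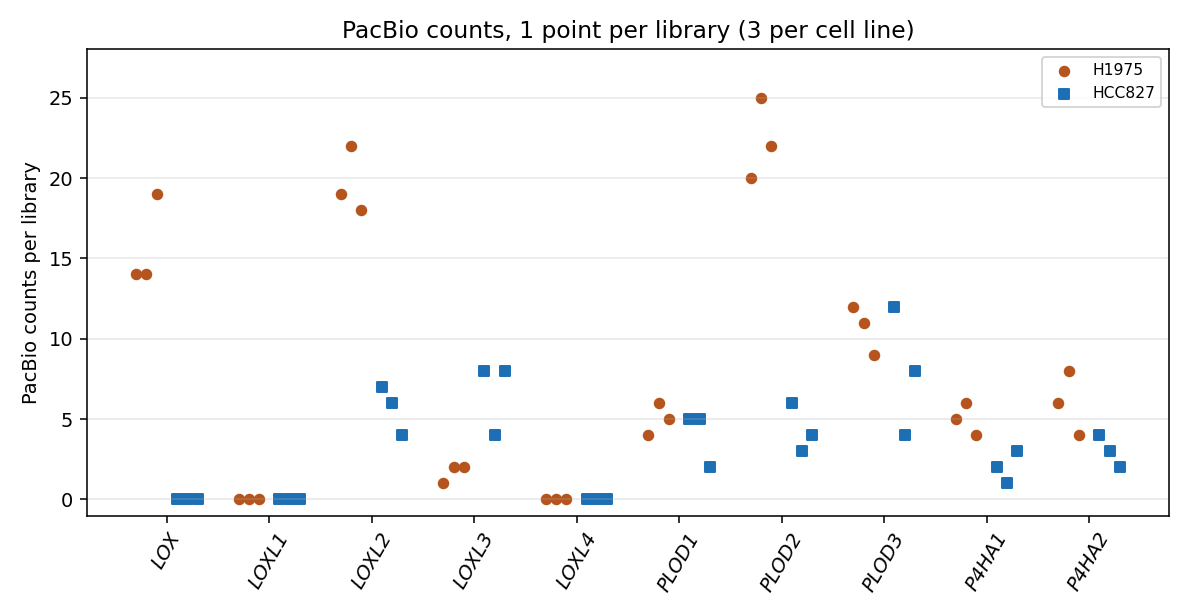
PacBio counts of each enzyme gene (vertical axis), 1 point per library, with 3 H1975 libraries (circles) and 3 HCC827 libraries (squares). LOX, LOXL2 and PLOD2 reach 14 to 25 counts in H1975 and 0 to 7 in HCC827, LOXL3 is higher in HCC827, and LOXL1 and LOXL4 are at 0 throughout.

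The order of the enzymes within each line was read from Illumina CPM per kilobase of exon (mean of 3 libraries). H1975 was led by LOXL2 (30.5), P4HA1 (24.7) and LOX (23.5), followed by PLOD2 (18.6), PLOD1 (17.8) and PLOD3 (16.0). P4HA2 (6.65), LOXL3 (2.15), LOXL4 (0.960) and LOXL1 (0.438) came last. P4HA1 and LOX overlapped in range, as did PLOD2 and PLOD1, and all other neighbours were apart. HCC827 was led by PLOD3 (13.3), PLOD1 (13.1) and LOXL2 (8.70), followed by LOXL3 (5.88), P4HA1 (5.62) and P4HA2 (4.21). PLOD2 (2.92), LOXL1 (0.481), LOX (0.196) and LOXL4 (0.0456) came last. Here PLOD3 overlapped PLOD1, PLOD1 overlapped LOXL2, and LOXL3 overlapped P4HA1. LOX was by this length the third enzyme of H1975 and the ninth of HCC827. With the longest transcript as the length LOX was the sixth in H1975 (25.9) and still the ninth in HCC827 (0.216). PLOD2 then came to be the second in H1975, at 46.1 CPM per kilobase, and P4HA2 (9.36) stood above P4HA1 (6.12) in HCC827.

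**Figure D4:**
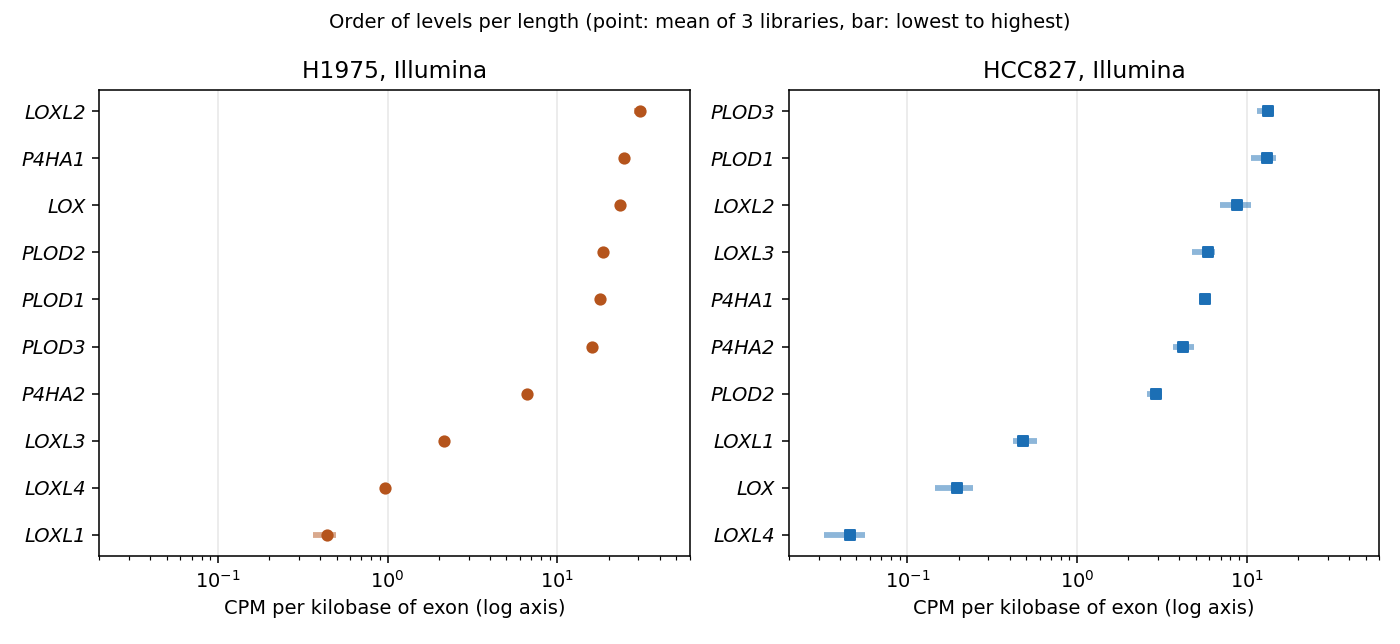
Illumina level of each enzyme gene per kilobase of exon (horizontal log axis), ordered within H1975 (left) and HCC827 (right), as the mean of 3 libraries with a bar from the lowest to the highest. LOXL2 leads in H1975 with 30.5 CPM per kilobase and PLOD3 in HCC827 with 13.3, and LOX is in the third place of H1975 (the sixth by longest transcript) and the ninth of HCC827.

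Within the families the makeup shifted. LOX made up 40.8% ± 1.0 (SD, n = 3) of the summed lysyl oxidase level per kilobase in H1975 and 1.35% ± 0.57 in HCC827. LOXL3 went the other way, from 3.73% ± 0.16 to 38.5% ± 2.6, while its own Illumina level was 2.71 times higher in HCC827. A share also rises when other members of the sum fall. LOXL2 was the largest lysyl oxidase share in both lines, with 53.0% ± 1.3 and 56.7% ± 2.7. PLOD2 held 35.5% ± 1.3 of the lysyl hydroxylase level in H1975 and 10.1% ± 2.0 in HCC827, where PLOD1 (44.6% ± 2.4) and PLOD3 (45.3% ± 0.5) shared the rest. The shares of PLOD1 and PLOD3 were 33.9% and 30.5% in H1975, so they rose although both genes were lower in HCC827 in Illumina. Of the P4HA1 and P4HA2 sum, P4HA1 held 78.7% ± 0.2 in H1975 and 57.3% ± 3.4 in HCC827. By the longest transcript these P4HA1 shares were 64.4% and 39.7%. Which of P4HA1 and P4HA2 is the larger in HCC827 thus depends on the length used, and P4HA3 is not part of this sum. By that length LOX held 32.7% in H1975 and 1.03% in HCC827, LOXL3 3.33% and 32.7%, and PLOD2 41.9% and 12.8%.

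The genes that work with these enzymes were then counted in fixed lists. Of 65 tested list genes in Illumina 36 were lower and 15 higher in HCC827, and of 62 in ONT 31 were lower and 12 higher. Over all tested genes 74.1% were called in Illumina, 38% lower and 36.1% higher. In ONT 62.7% were called, 31.6% lower and 31.1% higher. No list was tested as a set against these shares. Some list genes passed the filter on low counts through H1975 alone, such as COL1A2, CA9 and the glycosylation gene COLGALT2 (51 and 8 Illumina counts). TLL1 passed it through HCC827 alone. Such passing favours calls in the direction of that line, so the totals and list counts are not read against these shares. Of 8 collagen chaperone and hydroxylysine glycosylation genes 7 were lower and 1 was higher in Illumina (median log2 fold -0.79), and in 5 and 1 of 7 in ONT (-0.63). SERPINH1, the collagen chaperone HSP47, had log2 folds of -2.72 ± 0.11 in Illumina and -2.74 ± 0.14 in ONT. FKBP14, a prolyl isomerase of the endoplasmic reticulum, had -2.19 ± 0.12 and -2.27 ± 0.17. FKBP10, which assists PLOD2, was higher (0.46 ± 0.11 and 0.53 ± 0.16), an ONT call lost without H1975 replicate 1 (adjusted p = 0.0732) or 3 (0.0557). Prolyl hydroxylase partners and prolyl 3-hydroxylases split, with 3 lower, 3 higher and 2 not called of 8 in Illumina (median 0.16) and 3, 1 and 4 in ONT (0.04). The prolyl 3-hydroxylases P3H3 (-4.07 ± 0.17 in Illumina, -3.16 ± 0.25 in ONT) and P3H2 (-3.10 ± 0.11 and -2.69 ± 0.22) were lower. P3H4, which lacks a catalytic role of its own, was higher (0.60 ± 0.09 and 0.76 ± 0.19). P4HB, the beta subunit shared by P4HA1 and P4HA2, was higher in Illumina (0.49 ± 0.11, adjusted p = 0.00093) and missed the threshold in ONT (0.36 ± 0.15, adjusted p = 0.0518), which it passed without HCC827 replicate 1 (0.0150) or 2 (0.0482).

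Fibrillar collagens, the substrates, were lower in 6 and higher in 1 of 7 tested (of 11 listed) in Illumina, with a median log2 fold of -2.15. ONT gave 5 lower and 0 higher of 6 (median -2.97). Genes such as COL1A2 passed the filter on low counts through H1975 alone. Such passing favours lower calls, so these counts and medians are not read against all tested genes. COL1A2 had 8538 Illumina counts over the H1975 libraries and 1 over those of HCC827, a ratio of 6303 (counting interval 1131 to 248982). Count ratios here and below are over all gene counts of each line, without the scaling used for CPM and log2 folds, and so are not on the same scale. COL5A1 was lower by a log2 fold of -7.97 ± 0.16 in Illumina and -7.15 ± 0.23 in ONT. COL24A1 was higher in Illumina (1.32 ± 0.30) and did not pass in ONT (0.17 ± 0.21, adjusted p = 0.501). Procollagen processing genes split, with 4 lower and 3 higher of 7 in Illumina (median -0.27) and 2 and 3 of 6 in ONT (0.60). Of the tolloid proteases, TLL1 was higher (6.40 ± 0.28 and 5.19 ± 0.49) and TLL2 lower (-4.61 ± 0.16 and -4.29 ± 0.27). BMP1, of the same family, differed little. It was slightly lower in Illumina (-0.27 ± 0.11, adjusted p = 0.0341) and did not pass in ONT (0.20 ± 0.15, adjusted p = 0.249). The N-propeptidase ADAMTS2 had 132 and 2 Illumina counts, a ratio of 48.7 (interval 13.2 to 406.5), and the enhancer PCOLCE2 was higher (1.33 ± 0.10 and 1.74 ± 0.20).

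Elastic fibre genes were lower in 4, higher in 1 and not called in 4 of 9 in Illumina (median -0.12), and 3 each in ONT (0.22). Among them ELN, the gene of the lysyl oxidase substrate elastin, was lower in HCC827 (-2.15 ± 0.22 in Illumina and -1.88 ± 0.19 in ONT). The microfibril gene MFAP2 had 303 and 2 Illumina counts, a ratio of 111.8 (interval 30.7 to 927.7), and EFEMP2, a fibulin that binds LOX, had -2.28 ± 0.23 in Illumina and -1.56 ± 0.23 in ONT. FBN2 was higher in Illumina (1.27 ± 0.48, adjusted p = 0.0274), a call lost with DESeq2 (0.0554) and without H1975 replicate 1 or 3 or HCC827 replicate 2 or 3 (0.0599 to 0.0988). It did not pass in ONT (0.32 ± 0.36, adjusted p = 0.447). For copper supply, 1 of 5 genes was lower and 1 higher in Illumina (median -0.16), and 2 were lower in ONT (-0.32). ATP7A, the pump that loads secreted copper enzymes, was lower on both (-0.64 ± 0.09 and -0.99 ± 0.17). The related pump ATP7B was slightly higher in Illumina (0.31 ± 0.13, adjusted p = 0.0485) and lower in ONT (-1.43 ± 0.20, adjusted p = 0.000103). That Illumina call was lost with DESeq2 (0.190), with no filter on low counts (0.102) and without H1975 replicate 1, 2 or 3 or HCC827 replicate 1 (0.0986 to 0.217). Without HCC827 replicate 3, Illumina called 4 of the 5 copper genes, 3 lower and 1 higher.

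Among oxygen-sensing hydroxylases 1 of 5 was lower and 3 higher in Illumina (median 0.36), and 1 and 2 in ONT (0.37). EGLN1, the main hydroxylase of hypoxia-inducible factor, was lower (-1.86 ± 0.11 and -1.04 ± 0.28), EGLN2 higher (2.48 ± 0.10 and 2.78 ± 0.25), and the transmembrane enzyme P4HTM higher (0.71 ± 0.12 and 0.54 ± 0.17). Of 8 hypoxia response genes 6 were lower in Illumina (median -0.44) and 6 in ONT (-0.60), but not the same 6. On either platform 0 were higher. For CA9, a carbonic anhydrase, Illumina counted 1545 in H1975 and 1 in HCC827, a ratio of 1141 (interval 204 to 45078), and NDRG1 had -1.52 ± 0.11 and -1.35 ± 0.24. Of TGF-beta pathway genes 4 of 8 were lower and 2 higher on both, with medians of -0.86 and -0.76. CCN2, a matrix target of the pathway, was lower (-2.22 ± 0.12 and -2.35 ± 0.31). The ligand TGFB1 (1.98 ± 0.12 and 2.28 ± 0.19) and the receptor TGFBR2 (0.41 ± 0.10 and 0.66 ± 0.20) were higher. ONT calls were lost for P4HTM without H1975 replicate 1 (adjusted p = 0.0789) and for TGFBR2 without H1975 replicate 1 (0.0538) or 2 (0.0569).

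**Figure D5:**
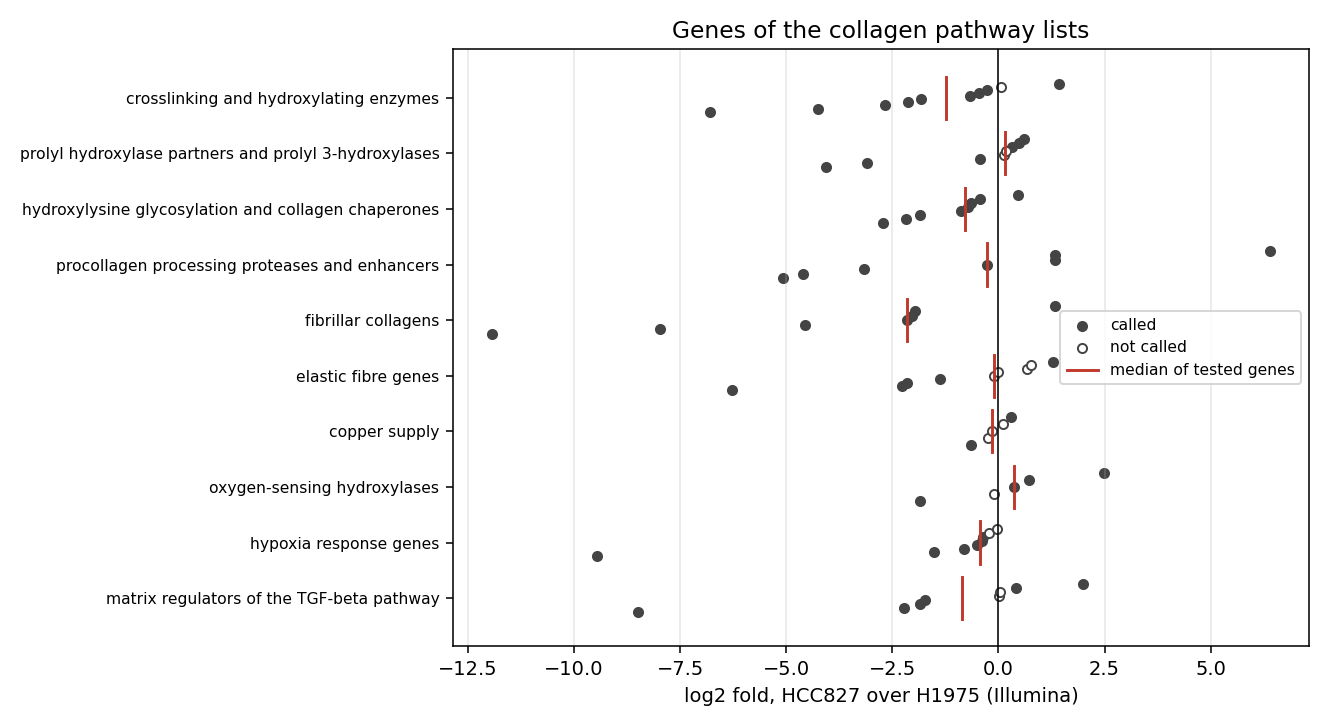
Illumina log2 folds, HCC827 over H1975 (horizontal axis), of the tested genes of each list, with filled points for adjusted p below 0.05, open points for genes not called and a red bar at each median. Fibrillar collagens have the lowest median, -2.15, and the enzymes have -1.24. Points of COL1A2, CA9, ADAMTS2 and MFAP2 rest on 1 or 2 HCC827 counts, and these genes passed the filter on low counts through H1975 alone.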

How the data were processed

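Gene counts of 18 libraries were analysed, with groups and replicate numbers taken from the sample titles. The deposited values are counts, whole numbers per gene with no normalization by the authors. The submitters' processing notes name minimap2 2.17, featureCounts and the GRCh38 build. Annotation release and strand setting: not given in the sources used here. PacBio counts came from alignments of clustered sequences per the file headers, so 1 count can represent several reads. The headers of HCC827 replicate 3 also name poly(A) in PacBio and a repeat run in Illumina.

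Symbols, coordinates and exon lengths came from GENCODE 44, which matched 60357 of 60617 Illumina and 58207 of 58676 long-read genes. The 76 sequin spike-ins were left out and 45 Y-linked copies of shared genes were added to their X copies. edgeR 4.0.16 in R 4.3.3 used TMM scaling, filterByExpr by group (minimum count 10) and robust two-sided quasi-likelihood tests, with Benjamini-Hochberg adjustment over all tested genes and a threshold of 0.05. Standard errors come from the fold and its p. CPM are counts scaled to effective library sizes. Depth limits PacBio in particular. Count ratios are over all gene counts of each line, without TMM scaling. Count intervals (95%, Clopper-Pearson) and floors of 3 counts cover counting error only, as reads carry no molecular identifiers. Fits were tested on simulated data in which few genes changed, so that test does not cover differences as broad as those between these lines. DESeq2 1.42.0, limma-voom (limma 3.58.1), other scaling, no filter, replicate blocks, left-out libraries and transcript length were alternatives.

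All 10 enzymes, genes sharing exon bases with them and up to 2 called genes per direction of each pathway list with the largest Illumina folds were named. BMP1, COLGALT2, ELN and P4HA3 were added outside this rule. A gene that this rule names is not reported here. Enzymes and lists were chosen with earlier results of these data known. Markers were EPCAM, CDH1, KRT8, KRT18, KRT19 and KRT7 (epithelial); NKX2-1, NAPSA, SFTPB, SFTPC and SFTA2 (lung lineage); PDGFRA, PDGFRB, DCN, LUM, THY1, FAP and DPT (fibroblast); PECAM1, CDH5 and VWF (endothelial); PTPRC, CD3E and CD68 (hematopoietic).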

Additional observations from a re-analysis of the deposited data

Results flagged for a closer look

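PLOD3 had a cell line difference that itself differed between platforms: its log2 fold, HCC827 over H1975, was higher in ONT than in Illumina by 1.07 (edgeR interaction, adjusted p = 0.000452). All 3 HCC827 libraries were below all 3 H1975 libraries in Illumina and above them in ONT. Illumina and ONT differ at once in amount of mRNA, preparation and sequencer.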

How the results depend on the processing

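In Illumina and ONT the number of enzymes called stayed within 1.5 times of 9 and 10 under every alternative run, and so did the totals of 51 and 43 called list genes. Within that margin, the ONT calls of LOXL1, PLOD1 and P4HA2, all lower in HCC827, were lost together without any 1 H1975 library or without HCC827 replicate 1. The count of single lists moved by more for copper supply in Illumina, with 2 called, 1 with DESeq2, with no filter and with the replicate block, and 1 to 4 with 1 library left out. Over single enzymes and alternatives, 106 Illumina results kept direction and side of the threshold, 2 lost the call and 2 changed sign. In ONT 96 kept both and 14 lost the call. Of the results that changed sign, LOXL1 in Illumina had -0.0591 to 0.156 with 1 library left out. The ONT minus Illumina difference of LOXL4, not called, turned to -0.12 with DESeq2, -0.21 with limma-voom, -0.0063 with relative log expression scaling, and it ran from -3.28 to 0.68 with 1 RNA sample left out. That of P4HA1, also not called, turned to 0.0185 with no filter and ran from -0.0890 to 0.0563 with 1 RNA sample left out. The cause was not tested.

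PacBio called 2 enzymes, against 1 with DESeq2 and 0 to 3 when 1 library was left out (0 without H1975 replicate 2 or 3 or HCC827 replicate 1 or 2). Over all genes PacBio called 63, against 206 with all 6 libraries separate, 18 with DESeq2, 34 with limma-voom, 475 with no filter and 0 to 365 with 1 library left out. The cause of these changes was not tested. With 1 residual degree of freedom, as without H1975 replicate 1 or HCC827 replicate 3, a lone sample is assumed to vary like the rest. In the order of levels per kilobase 5 pairs of neighbours overlapped, and 3 to 5 with 1 library left out (3 without H1975 or HCC827 replicate 1).

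Same-numbered samples of the lines did not deviate together (correlations of -0.46 to 0.20), so the numbers do not pair them. With the replicate block 9 and 10 enzymes were called in Illumina and ONT. The PacBio block was fitted on all 6 libraries as separate samples, where 3 enzymes were called with the block and 3 without it, and LOXL2 passed with it (adjusted p = 0.0318) and without it (0.00537). Among the other named genes, ATP7B in Illumina lost its call (0.101). Platforms share RNA samples, and with the RNA sample as replicate block the interaction was called for 2 enzymes and 3109 genes, against 1 and 2105 without it. With 1 RNA sample left out 1101 to 2765 genes were called, and PLOD3 was among them under each alternative run.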
